A study of Homo sapiens with 12 samples.

Results

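The genes described here are 45 interferon-stimulated antiviral effectors, chosen by name from families that act against viruses inside or at the surface of the cell. They were chosen with earlier results of these data known. A gene was measured where a transcript cluster of the array carried its symbol alone, and the brightest cluster over the 12 arrays was used where there were several. By this rule 44 of the 45 genes were measured, out of 17958 genes in all. DTX3L lay on a cluster that it shares with PARP9, and was not used.

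The study asked how ERβ2, a splice variant of estrogen receptor beta, affects gene expression in BT549, an established human triple-negative breast cancer cell line grown in RPMI medium with serum. There were 4 groups of 3 biological replicates. RNA was taken 48 h after transfection with siRNA targeting ERβ2 or with control siRNA, and 24 h after transfection with flag tagged ERβ2 cDNA in pcDNA3 or with the pcDNA3 empty vector (EV). All transfections were transient, the pcDNA3 insert is driven by a viral promoter, and the methods name more than 1 ERβ2 siRNA without saying which was on the arrays. Different reagents carried the siRNA and the plasmids.

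Interferons are cytokines that a cell releases after its sensors meet viral RNA or misplaced DNA. Type I and type III interferons bind receptors that signal through JAK kinases to transcription factors, which bind interferon-stimulated response elements in the promoters of many genes at once. The products of these genes bind or degrade viral RNA, stop translation, conjugate the ubiquitin-like protein ISG15 or hold virus particles at membranes, and in breast cancer they are known as a signature that some tumours and cell lines carry without infection.

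The promoters are shown because the core of that response element, GAAA, any 2 bases (NN) and GAAA again, can be read directly in them. RefSeq promoters (GRCh38.p14), 250 bases before to 50 bases after the annotated start, were found for 36 of the 44 genes. At least 1 match to this motif, or to its reverse complement (TTTC, any 2 bases, TTTC), stood in 24 of the 36 (66.7%), against 3.65% of all 27305 promoters of the same length. Matches were allowed to overlap each other, and 14 of the genes had 2 or more. The 5 promoters below belong to the 3 genes with the largest difference between EV and control siRNA (IFI44L, MX1 and IFIT1), to ISG15, and to ISG20, the gene with the smallest difference. Matches are in capitals.
IFI44L, chr1:78620198-78620497, + strand: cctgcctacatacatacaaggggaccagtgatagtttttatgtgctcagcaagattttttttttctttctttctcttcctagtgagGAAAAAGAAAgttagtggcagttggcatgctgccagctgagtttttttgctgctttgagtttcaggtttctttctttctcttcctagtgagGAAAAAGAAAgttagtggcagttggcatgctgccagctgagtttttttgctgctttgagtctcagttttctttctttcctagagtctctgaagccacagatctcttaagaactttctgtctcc
MX1, chr21:41420308-41420607, + strand: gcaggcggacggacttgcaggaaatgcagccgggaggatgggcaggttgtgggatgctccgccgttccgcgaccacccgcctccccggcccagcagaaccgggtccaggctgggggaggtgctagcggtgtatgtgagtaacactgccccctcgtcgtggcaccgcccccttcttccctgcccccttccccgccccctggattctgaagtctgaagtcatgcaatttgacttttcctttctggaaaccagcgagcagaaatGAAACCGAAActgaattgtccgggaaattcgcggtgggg
IFIT1, chr10:89392373-89392672, + strand: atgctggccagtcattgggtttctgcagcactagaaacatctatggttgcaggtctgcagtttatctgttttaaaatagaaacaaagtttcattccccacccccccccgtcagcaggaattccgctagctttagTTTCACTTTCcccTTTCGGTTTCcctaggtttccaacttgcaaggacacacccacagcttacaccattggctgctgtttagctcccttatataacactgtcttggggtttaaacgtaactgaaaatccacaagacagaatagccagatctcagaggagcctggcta
ISG15, chr1:1013247-1013546, + strand: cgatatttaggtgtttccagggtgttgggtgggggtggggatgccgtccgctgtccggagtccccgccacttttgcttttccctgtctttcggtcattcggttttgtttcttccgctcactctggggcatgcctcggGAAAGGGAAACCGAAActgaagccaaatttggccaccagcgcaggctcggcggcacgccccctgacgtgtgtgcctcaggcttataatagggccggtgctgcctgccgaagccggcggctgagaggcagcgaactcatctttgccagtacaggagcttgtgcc
ISG20, chr15:88638766-88639065, + strand: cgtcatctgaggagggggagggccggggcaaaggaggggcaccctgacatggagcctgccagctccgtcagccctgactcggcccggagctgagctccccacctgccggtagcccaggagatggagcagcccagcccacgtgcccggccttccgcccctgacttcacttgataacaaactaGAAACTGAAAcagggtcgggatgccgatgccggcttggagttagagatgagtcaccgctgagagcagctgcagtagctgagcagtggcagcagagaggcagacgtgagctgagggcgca

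Matches began 164 and 73 bases before the start in IFI44L, 116 and 103 bases before it in IFIT1, and 69 bases before it in ISG20. In MX1 the match began at base 12 after the start. In ISG15 both matches overlapped, as they did in BST2 and, for 2 of its 3 matches, in HERC5. Shorter windows of 30 bases show the element on either strand in genes of other families that the results below return to.
IFI44, chr1:78649761-78649790, + strand: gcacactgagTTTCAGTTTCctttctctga
BST2, chr19:17405741-17405770, - strand: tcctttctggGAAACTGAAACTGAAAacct
RTP4, chr3:187368333-187368362, + strand: tccatacacaGAAACAGAAActgaaccgaa
OAS3, chr12:112938321-112938350, + strand: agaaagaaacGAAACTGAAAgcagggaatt
SAMD9, chr7:93118096-93118125, - strand: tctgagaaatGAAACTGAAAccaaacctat
PARP14, chr3:122680800-122680829, + strand: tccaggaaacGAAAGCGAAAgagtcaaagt
DDX60L, chr4:168480553-168480582, - strand: gaaaactgcgGAAATCGAAAaggcctcgcg
HERC5, chr4:88456984-88457013, + strand: ctcattacagTTTCCTTTTCCTTTTCgatt
IFI6, chr1:27672329-27672358, - strand: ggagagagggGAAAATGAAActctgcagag
HERC5 and IFI44 carried the reverse complement, and the others carried the motif in the direction of the gene. No match was found in the window of OAS1, UBE2L6, HERC6, RSAD2, CMPK2, HELZ2, PARP9, SAMD9L, SP100, SP110, IFI35 and XAF1. The median difference between EV and control siRNA was 3.83 on the log2 scale in genes with a match (1.05 to 6.81) and 3.76 in genes without (2.16 to 5.72). A match describes the letters and does not show that a factor binds there.

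The array values were log2 values with a median per array of 5.04 to 5.14, and replicates correlated at a mean r of at least 0.9969. VIM, FN1, CDH2, ZEB1 and SPARC were bright in all arrays and ESR1, PGR, EPCAM and CDH1 were dim, as is known of BT549, whereas ERBB2 lay near 8 in all groups. ESR2, the gene that encodes ERβ2, had values of 4.12, 3.99 and 3.80 with ERβ2 siRNA, against 4.03, 3.88 and 4.05 with control siRNA, a difference of -0.02 that did not pass the test (adjusted p = 0.913). With ERβ2 plasmid ESR2 had 4.35, 4.72 and 4.37, against 4.08, 3.93 and 4.01 with EV, a difference of 0.47 that did not pass the test (adjusted p = 0.449). These levels are of the whole gene, and the ERβ2 variant was not measured separately. All ESR2 values lay below the median of their array, and whether they stood above background was not tested. From other assays the paper reports less ERβ2 mRNA by qPCR with the siRNA and more ERβ2 protein by Western blot with the plasmid.

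In the 4 groups the effector genes took up 2 levels. The median of the 44 genes was 9.71 to 9.78 in the ERβ2 plasmid arrays and 9.85 to 9.91 in the EV arrays, against 5.64 to 5.81 in the ERβ2 siRNA arrays and 5.54 to 5.70 in the control siRNA arrays. In each siRNA group 14 of the 44 genes had a group mean below the median of all transcript clusters, against 0 of 44 in each plasmid group. Within groups the genes varied little, with a median SD of 0.13 (ERβ2 siRNA), 0.11 (control siRNA), 0.05 (ERβ2 plasmid) and 0.08 (EV), where all genes had 0.07, 0.08, 0.07 and 0.09. The largest SDs were those of DDX60 with ERβ2 siRNA (0.39), LAMP3 with EV (0.33), MX1 with control siRNA (0.28) and UBE2L6 with ERβ2 plasmid (0.20).

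**Figure D1:**
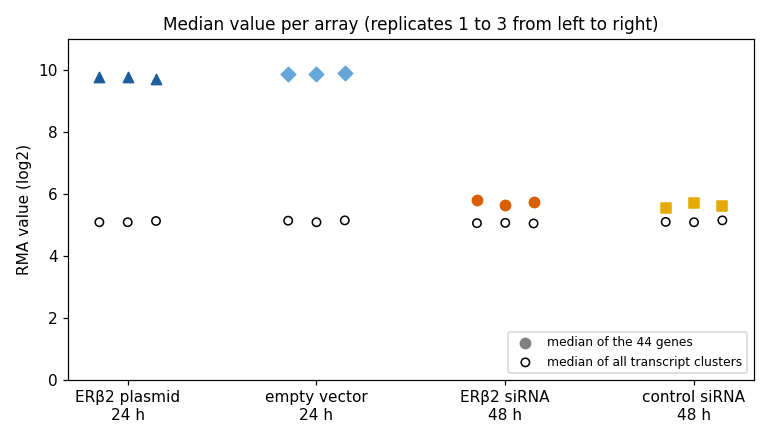
Median log2 value of the 44 effector genes (filled points) and of all transcript clusters (open circles) in each of the 12 arrays, by group. The effector medians are 9.71 to 9.91 in the 6 plasmid arrays and 5.54 to 5.81 in the 6 siRNA arrays, while the array medians stay between 5.04 and 5.14.

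EV arrays were set against control siRNA arrays to place both controls of the study side by side. All 44 effector genes were higher with EV at an adjusted p of at most 0.1, by limma with Benjamini-Hochberg adjustment over all 17958 genes, as were 19.2% of all genes, and 0 were lower, against 22.4% of all genes. The median difference was 3.71 on the log2 scale, or 13.1-fold, against -0.06 for all genes, and it ran from 1.05 in ISG20 (2.08-fold) to 6.81 in IFI44L (112-fold). In the control siRNA arrays 14 of the 44, IFI44L among them, had means below the median of all clusters, and it was not tested whether these were above background, so their folds and ranks are those of the deposited values only. All 44 were also at least 1.5-fold higher, against 5.57% of all genes, and adjusted p-values lay between 5.82e-10 and 8.58e-04. The groups did not overlap in any of the 44, against 21% of all genes, and in all 44 the 6 plasmid arrays lay above the 6 siRNA arrays, against 10.1% of all genes. Centring each array on its median moved the median of all genes to -0.21 and that of the effectors to 3.55, and all 44 still passed. Of the 15 genes on the array that were at least 32-fold higher with EV, 13 were effectors, and of the 91 genes at least 4-fold higher, 38 were. Effectors held 9 of the 10 largest differences and 18 of the 20 largest. Since the genes were chosen with earlier results of these data known, these ranks only describe the list. The groups differ in time after transfection, in reagent, in nucleic acid and, by the study's methods, in the density of the cells at transfection, and these cannot be told apart here. In these bulk samples more responding cells and more RNA per cell cannot be told apart either.

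**Figure D2:**
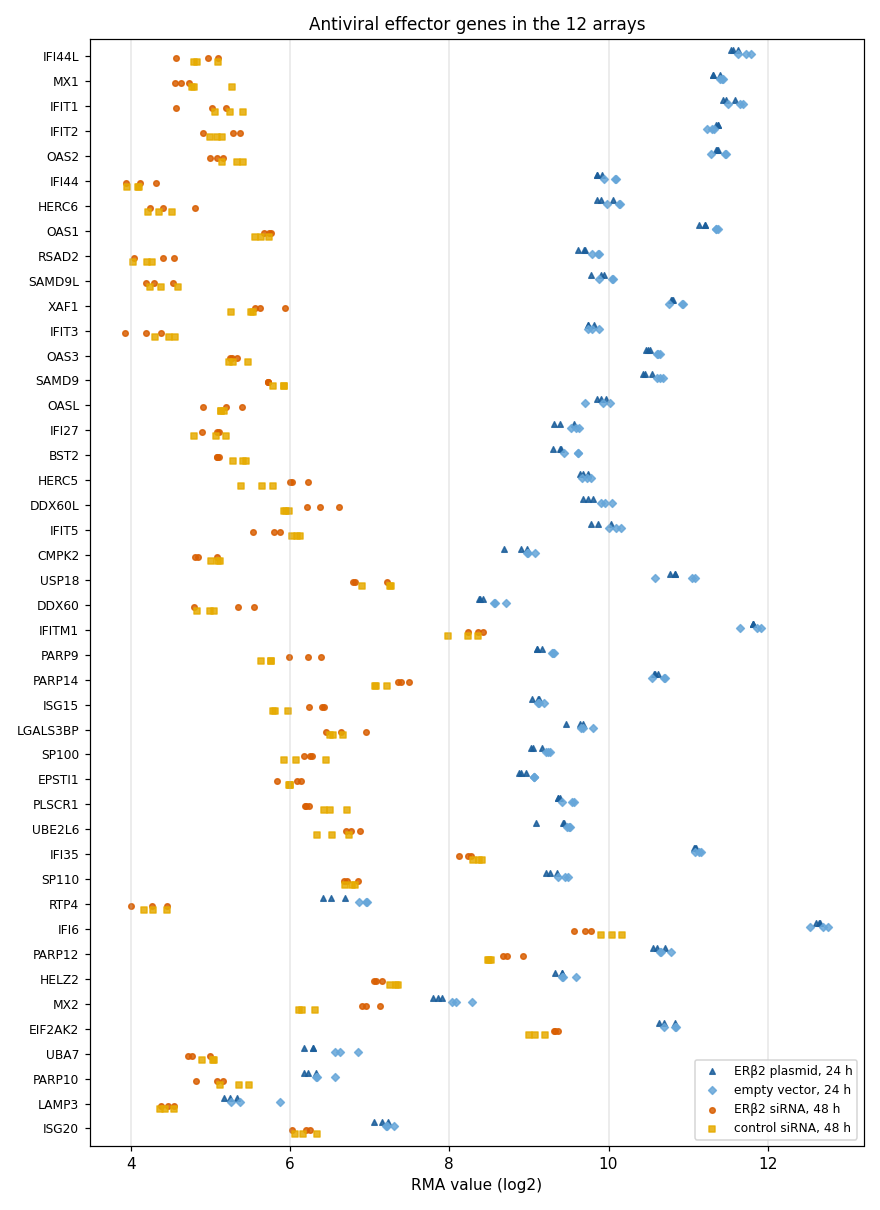
Log2 value of each of the 44 effector genes (rows) in each of the 12 arrays, coloured by group. In every row all 6 plasmid arrays (ERβ2 plasmid and EV) lie right of all 6 siRNA arrays, with the narrowest gap in LAMP3 (0.63) and the widest in IFI44L (6.45).

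The IFIT proteins, which bind foreign RNA 5′ ends and hold back its translation, had a median difference of 5.78 between EV and control siRNA. IFIT1 had log2 values of 11.47, 11.59 and 11.44 with ERβ2 plasmid and 11.69, 11.50 and 11.65 with EV, against 5.20, 4.57 and 5.02 with ERβ2 siRNA and 5.41, 5.24 and 5.06 with control siRNA. Its difference was 6.38 (SE 0.10, adjusted p = 1.10e-09). IFIT2 had 11.38, 11.38 and 11.35 with ERβ2 plasmid and 11.30, 11.24 and 11.32 with EV, against 5.28, 4.91 and 5.37 with ERβ2 siRNA and 5.15, 5.08 and 4.99 with control siRNA. Both genes thus lay above 11 in every plasmid array and below 6 in every siRNA array, and IFIT2 differed by 6.21 (SE 0.07, adjusted p = 5.82e-10). IFIT3 (5.36) and IFIT5 (4.0) differed less, and the 95% confidence interval of IFIT5 (3.85 to 4.15) did not reach that of IFIT3 (5.18 to 5.54).

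The enzymes OAS1, OAS2 and OAS3 make the second messenger that switches on RNase L, and EIF2AK2 encodes PKR, the kinase that stops translation on double-stranded RNA. OAS1 had 11.21, 11.13 and 11.21 with ERβ2 plasmid and 11.35, 11.35 and 11.37 with EV, against 5.76, 5.67 and 5.74 with ERβ2 siRNA and 5.63, 5.74 and 5.56 with control siRNA. OAS2 had 11.35, 11.38 and 11.36 with ERβ2 plasmid and 11.46, 11.29 and 11.48 with EV, against 5.08, 4.99 and 5.16 with ERβ2 siRNA and 5.34, 5.41 and 5.14 with control siRNA. Neither gene had a plasmid array near its siRNA arrays, and the differences were 5.71 (SE 0.07, adjusted p = 6.10e-10) for OAS1 and 6.11 (SE 0.09, adjusted p = 8.54e-10) for OAS2. OAS3 (5.30) and OASL (4.74) followed, whereas EIF2AK2 differed by 1.70 (SE 0.08, adjusted p = 1.03e-06).

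MX1 and MX2 are dynamin-like GTPases that act on viral nucleocapsids, and they lie next to each other on chromosome 21. MX1 had 11.40, 11.31 and 11.31 with ERβ2 plasmid and 11.44, 11.40 and 11.43 with EV, against 4.73, 4.63 and 4.55 with ERβ2 siRNA and 4.79, 5.27 and 4.77 with control siRNA. MX2 had 7.91, 7.79 and 7.86 with ERβ2 plasmid and 8.09, 8.29 and 8.03 with EV, against 7.13, 6.91 and 6.96 with ERβ2 siRNA and 6.31, 6.11 and 6.15 with control siRNA. The 2 genes stood far apart in the size of the difference, 6.48 (SE 0.12, adjusted p = 4.04e-09) for MX1 and 1.95 (SE 0.09, adjusted p = 1.14e-06) for MX2, and MX2 had the narrower gap between plasmid and siRNA arrays (0.66, against 6.04 for MX1).

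ISG15 is joined to other proteins by UBA7 (the activating enzyme), UBE2L6 (the conjugating enzyme) and HERC5 (the ligase), and is removed by USP18. ISG15 had 9.13, 9.11 and 9.04 with ERβ2 plasmid and 9.12, 9.13 and 9.19 with EV, against 6.43, 6.24 and 6.40 with ERβ2 siRNA and 5.79, 5.81 and 5.97 with control siRNA. UBA7 had 6.29, 6.29 and 6.18 with ERβ2 plasmid and 6.56, 6.85 and 6.63 with EV, against 4.72, 4.99 and 4.77 with ERβ2 siRNA and 5.03, 4.90 and 5.05 with control siRNA. HERC5 had 9.74, 9.68 and 9.64 with ERβ2 plasmid and 9.78, 9.67 and 9.73 with EV, against 6.0, 6.22 and 6.03 with ERβ2 siRNA and 5.38, 5.65 and 5.78 with control siRNA. All 3 had every plasmid array above every siRNA array, and differed by 3.29 (SE 0.07, adjusted p = 7.08e-09) for ISG15, 1.69 (SE 0.09, adjusted p = 2.92e-06) for UBA7 and 4.12 (SE 0.10, adjusted p = 1.82e-08) for HERC5. HERC6 (5.72), a HERC family relative, USP18 (3.76) and UBE2L6 (2.96) were also higher, so that the median of the 6 genes was 3.53.

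The enzymes of nucleotides and RNA had a median of 3.80. RSAD2, or viperin, makes a chain-terminating nucleotide and had 9.71, 9.61 and 9.69 with ERβ2 plasmid and 9.79, 9.88 and 9.87 with EV, against 4.54, 4.04 and 4.41 with ERβ2 siRNA and 4.03, 4.27 and 4.21 with control siRNA. DDX60L, a helicase relative of DDX60, had 9.74, 9.80 and 9.68 with ERβ2 plasmid and 9.91, 10.04 and 9.96 with EV, against 6.38, 6.21 and 6.62 with ERβ2 siRNA and 5.99, 5.92 and 5.95 with control siRNA. RSAD2 differed by 5.68 (SE 0.08, adjusted p = 8.36e-10) and DDX60L by 4.02 (SE 0.06, adjusted p = 1.11e-09), both without overlap of plasmid and siRNA arrays. CMPK2 (3.94), a mitochondrial nucleotide kinase whose gene lies next to RSAD2, and DDX60 (3.65) were also higher. HELZ2 (2.16) and the exonuclease ISG20 (1.05) had the smallest differences of the 6.

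Of the membrane and secreted proteins (median 3.05), BST2, or tetherin, holds budding virus at the cell surface. BST2 had 9.39, 9.40 and 9.30 with ERβ2 plasmid and 9.62, 9.62 and 9.44 with EV, against 5.08, 5.08 and 5.11 with ERβ2 siRNA and 5.45, 5.41 and 5.29 with control siRNA. RTP4, a receptor transporting protein, had 6.52, 6.41 and 6.69 with ERβ2 plasmid and 6.86, 6.95 and 6.97 with EV, against 4.27, 4.45 and 4.0 with ERβ2 siRNA and 4.28, 4.17 and 4.45 with control siRNA. LAMP3, a lysosomal membrane protein, had 5.25, 5.17 and 5.33 with ERβ2 plasmid and 5.37, 5.88 and 5.26 with EV, against 4.38, 4.47 and 4.54 with ERβ2 siRNA and 4.37, 4.43 and 4.54 with control siRNA. LAMP3 had its highest EV value in replicate 2, and its difference of 1.06 (SE 0.15, adjusted p = 8.58e-04) was among the smallest, beside 4.18 (SE 0.08, adjusted p = 2.57e-09) for BST2 and 2.63 (SE 0.08, adjusted p = 9.49e-08) for RTP4. IFITM1 (3.62), which blocks viral fusion, LGALS3BP (3.14) and the scramblase PLSCR1 (2.96) lay between.

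PARP9, PARP10, PARP12 and PARP14 belong to the family of ADP-ribosyltransferases (median 2.86). PARP9 had 9.10, 9.16 and 9.10 with ERβ2 plasmid and 9.31, 9.30 and 9.29 with EV, against 6.22, 5.99 and 6.39 with ERβ2 siRNA and 5.76, 5.76 and 5.63 with control siRNA, a difference of 3.58 (SE 0.06, adjusted p = 2.03e-09). PARP14 (3.52) was close to PARP9, and PARP12 (2.19) and PARP10 (1.09) differed less. SAMD9, a restriction factor of poxviruses, had 10.55, 10.43 and 10.46 with ERβ2 plasmid and 10.61, 10.65 and 10.68 with EV, against 5.72, 5.72 and 5.72 with ERβ2 siRNA and 5.92, 5.78 and 5.93 with control siRNA. It differed by 4.77 (SE 0.07, adjusted p = 8.36e-10), and its paralog SAMD9L by 5.59. SP100, a component of nuclear bodies, had 9.02, 9.16 and 9.05 with ERβ2 plasmid and 9.24, 9.22 and 9.27 with EV, against 6.25, 6.18 and 6.28 with ERβ2 siRNA and 6.08, 5.92 and 6.45 with control siRNA. SP100 and SP110 differed by 3.09 and 2.67, with overlapping confidence intervals.

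The last group held IFI proteins and others (median 4.56). IFI6, an antiviral protein of the endoplasmic reticulum, had 12.65, 12.60 and 12.64 with ERβ2 plasmid and 12.76, 12.53 and 12.69 with EV, against 9.78, 9.56 and 9.70 with ERβ2 siRNA and 9.90, 10.17 and 10.04 with control siRNA. IFI44L had 11.56, 11.63 and 11.54 with ERβ2 plasmid and 11.79, 11.63 and 11.73 with EV, against 5.09, 4.57 and 4.97 with ERβ2 siRNA and 4.80, 4.83 and 5.09 with control siRNA. IFI44 had 9.85, 9.92 and 9.86 with ERβ2 plasmid and 10.09, 9.94 and 10.08 with EV, against 4.32, 3.94 and 4.12 with ERβ2 siRNA and 4.09, 3.95 and 4.10 with control siRNA. No plasmid array came near a siRNA array in IFI44L or IFI44, and the IFI44L difference of 6.81 (SE 0.09, adjusted p = 8.36e-10) was the largest of all 17958 genes, followed by MX1 and IFIT1. IFI44 differed by 5.99 (SE 0.07, adjusted p = 6.10e-10) and IFI6 by 2.62 (SE 0.09, adjusted p = 1.75e-07). XAF1 (5.44), IFI27 (4.56), EPSTI1 (3.07) and IFI35 (2.76) were between them. The deposited table has no detection calls, and signal shared between close relatives such as the IFIT genes or USP18 and its copy was not tested.

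**Figure D3:**
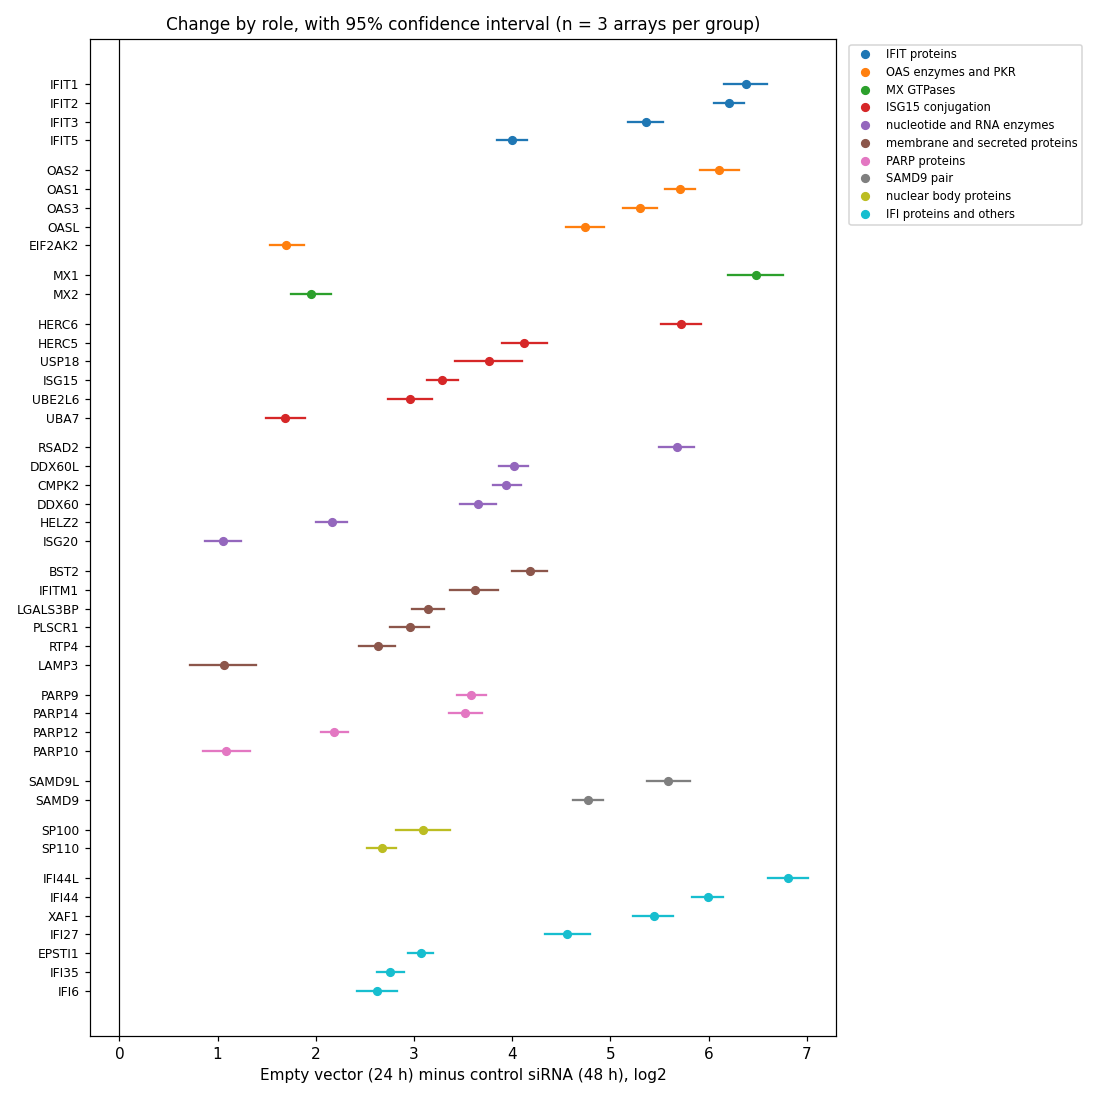
Difference between EV and control siRNA arrays (log2) for the 44 genes by role, with points at the limma estimate and bars for the 95% confidence interval (n = 3 arrays per group). Every interval lies above 0, from ISG20 at 1.05 to IFI44L at 6.81, and EIF2AK2 (1.70) and MX2 (1.95) lie well below the other members of their groups.

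Of 27 genes listed as acting upstream of the effectors, 24 were measured. IFNA1 lay on a cluster shared with IFNA13 and was not used, and the others were not analysed here. With EV 16 of the 24 were higher than with control siRNA, 2 were lower and 6 did not pass, against 19.2% of all genes higher and 22.4% lower. IFNB1, which encodes interferon beta, had log2 values of 7.20, 7.01 and 7.21 with ERβ2 plasmid and 7.43, 7.56 and 7.10 with EV, against 3.48, 3.83 and 3.69 with ERβ2 siRNA and 3.64, 3.68 and 3.35 with control siRNA. The 6 plasmid arrays did not overlap the 6 siRNA arrays, and IFNB1 differed by 3.81 (SE 0.13, adjusted p = 1.75e-07) between EV and control siRNA. IFNL1, a type III interferon, was 2.39 higher. The RNA sensors IFIH1 (5.31), RIGI (3.97), TLR3 (3.72) and DHX58 (3.05) were all higher, as were the DNA sensor CGAS (0.59) and its adaptor STING1 (1.18). Of the transcription factors, IRF7 (1.89), IRF1 (1.66), IRF9 (1.56) and IRF2 (0.79) were higher and IRF3 did not pass (-0.07). The receptor genes IFNAR2 (0.39) and IFNAR1 (0.20), the kinase JAK2 (1.05) and the inhibitor SOCS3 (0.37) were higher, while the kinase TYK2 (-0.22) and the inhibitor SOCS1 (-0.33) were lower.

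**Figure D4:**
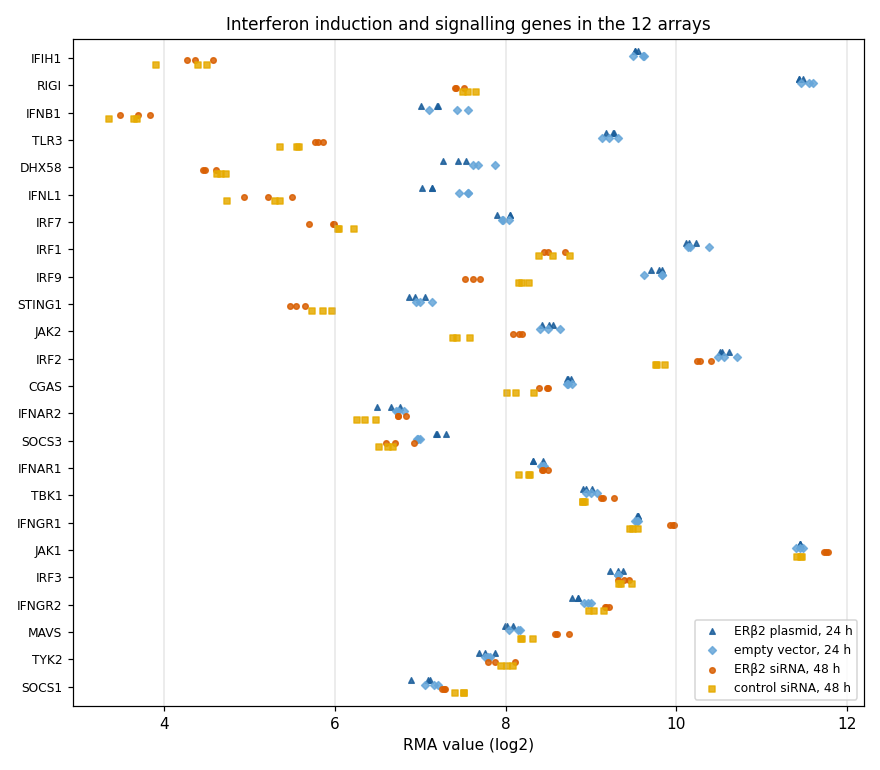
Log2 value of each of the 24 measured interferon, receptor, sensor and signalling genes (rows) in each of the 12 arrays, coloured by group. IFNB1 and the sensor IFIH1 lie far to the right in the 6 plasmid arrays (7.01 to 7.56 for IFNB1), whereas MAVS, JAK1 and IFNGR1 are highest in the ERβ2 siRNA arrays.

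Genes known as leukocyte markers were also read in these arrays, which were all made from cultures of the BT549 line. PTPRC, the general leukocyte marker, had group means of 3.45 with ERβ2 plasmid and 3.39 with EV, against 3.46 with ERβ2 siRNA and 3.50 with control siRNA, and CD3E lay between 3.01 and 3.48 in all arrays. Of the 7 markers measured, CD14 (0.94), CD68 (1.12) and HLA-DRA (1.48) were higher with EV than with control siRNA, NCAM1 was lower (-0.14) and 3 did not pass. Of all genes, 19.2% were higher and 22.4% lower. The mean of the 7 markers was 6.20 to 6.32 in EV arrays, against 5.73 to 5.88 in control siRNA arrays. CD68 (11.11 with EV, 9.99 with control siRNA) and NCAM1 (8.84 and 8.99) were the brightest of the 7 and weigh most on this mean. PTPRC, CD3E and ITGAM (3.95 and 3.96), the 3 that did not pass, were dim. These are values of cultured BT549 cells, and how the markers relate to the effectors was not tested.

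Transfection with ERβ2 plasmid was compared with EV, and none of the 44 effectors passed the test, where 0.0111% of all genes were called higher and 0% lower. At an unadjusted p under 0.05, limma gave 16 effectors lower and 0 higher, against 4.06% and 2.96% of all genes. Leaving out 1 array gave 9 (without ERβ2 plasmid replicate 3) to 22 (without EV replicate 2) that were lower. The shares of all genes are not given for these fits. Estimates were below 0 for 41 of the 44 genes, against 51.7% of all genes, with a median of -0.14 against 0.00. The largest estimates were those of UBA7, -0.43 (SE 0.08, adjusted p = 0.418), RTP4, -0.39 (SE 0.08, adjusted p = 0.449), MX2, -0.28 (SE 0.08, adjusted p = 0.548), and LAMP3, -0.25 (SE 0.15, adjusted p = 0.802). In UBA7, RTP4 and MX2 each ERβ2 plasmid array lay below each EV array, whereas LAMP3 overlapped and had -0.06 without EV replicate 2. In all, 19 effectors had ERβ2 plasmid arrays wholly below the EV arrays, against 6.67% of all genes, and IFIT2 alone had them wholly above (0.08), against 5.35%. The 44 genes were read on the same arrays and can shift together, so these counts are not of independent results. No confidence interval of an effector reached further from 0 than 0.62 on the log2 scale. IFNB1 (-0.22) and IFNL1 (-0.42) did not pass either.

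ERβ2 siRNA was compared with control siRNA at the low level of the effectors. Of the 44 genes 8 rose (18.2%) and 8 fell (18.2%), against 18.3% and 17.5% of all genes, and 28 did not pass, so the share called was near that of the array as a whole. With each array centred on its median, 7 rose and 15 fell, while the median of all genes moved to -0.12 with 71.7% of them below 0, and that of the effectors to -0.07. The shares of all genes called under this scaling are not given. The median difference was 0.01, against -0.03 for all genes. MX2 had 7.13, 6.91 and 6.96 with ERβ2 siRNA, against 6.31, 6.11 and 6.15 with control siRNA. It rose most, by 0.81 (SE 0.08, adjusted p = 1.82e-04), and was the only effector at least 1.5-fold changed, against 3.25% of all genes higher and 1.26% lower by that rule. ISG15 rose by 0.50 (SE 0.08, adjusted p = 0.00164), PARP9 by 0.48 (SE 0.10, adjusted p = 0.00745), HERC5 by 0.48 (SE 0.11, adjusted p = 0.0108) and DDX60L by 0.45 (SE 0.10, adjusted p = 0.00959). In these 5 genes the ERβ2 siRNA arrays all lay above the control siRNA arrays. In all, 9 effectors lay wholly higher and 8 wholly lower with ERβ2 siRNA, against 21.1% and 21.3% of all genes. PARP14 (0.29), PARP12 (0.27) and EIF2AK2 (0.25) also rose.

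Among the genes that fell, IFI6 had 9.78, 9.56 and 9.70 with ERβ2 siRNA, against 9.90, 10.17 and 10.04 with control siRNA. These did not overlap, and the difference was -0.36 (SE 0.09, adjusted p = 0.0155). IFIT5 fell by 0.34, PLSCR1 by 0.34, BST2 by 0.29 and HELZ2 by 0.22, all without overlap. PARP10 (-0.30, adjusted p = 0.0838), OAS2 (-0.22, 0.0813) and SAMD9 (-0.16, 0.0885) passed narrowly. OAS2 did not pass without control siRNA replicate 1 (adjusted p = 0.173) or 2 (0.225) or ERβ2 siRNA replicate 1 (0.156) or 2 (0.201). PARP10 did not pass without control siRNA replicate 2 (adjusted p = 0.233) or 3 (0.183) or ERβ2 siRNA replicate 1 (0.233) or 3 (0.125). Of the 6 arrays of the comparison, SAMD9 passed only with control siRNA replicate 2 left out, and had adjusted p-values of 0.172 and 0.224 without control siRNA replicates 1 and 3, and 0.167, 0.161 and 0.189 without ERβ2 siRNA replicates 1, 2 and 3. ERβ2 siRNA replicate 2 had the lowest value of its group in 28 of the 44 effectors, at a median of -0.13 from the other replicates, against -0.01 over all genes. Without this replicate 11 effectors rose and 7 fell. The shares of all genes that were lowest in it, or were called without it, are not given.

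MX1 (-0.31, adjusted p = 0.112) and IFIT1 (-0.31, adjusted p = 0.178) did not pass. Of the 24 upstream genes 10 rose and 3 fell, against 18.3% and 17.5% of all genes. JAK2 (0.68), IRF2 (0.51), IFNGR1 (0.45), IFNAR2 (0.41), MAVS (0.41), TLR3 (0.31), JAK1 (0.30), CGAS (0.30), TBK1 (0.26) and IFNAR1 (0.22) rose, and IRF9 (-0.59), STING1 (-0.30) and SOCS1 (-0.20) fell. IFNB1 had a difference of 0.11 (adjusted p = 0.504), at 3.48, 3.83 and 3.69 with ERβ2 siRNA, against 3.64, 3.68 and 3.35 with control siRNA. The mean of the 7 leukocyte markers in these BT549 cultures was 6.0 to 6.08 with ERβ2 siRNA, against 5.73 to 5.88 with control siRNA. Of the 7, 4 were higher (CD14, CD68, NCAM1 and HLA-DRA) and CD3E was lower, against 18.3% and 17.5% of all genes. How these markers relate to the effectors was not tested. The comparisons with control siRNA, of EV and of ERβ2 siRNA, share the control siRNA arrays.

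The effect of ERβ2 siRNA was then set against that of ERβ2 plasmid in 1 fit of all 12 arrays, where the 2 effects share no array. For 11 of the 44 effectors (25%) the effects differed at an adjusted p of at most 0.1, against 26.4% of all genes. The siRNA effect was the higher in 10 of the 44 (22.7%), against 15% of all genes. It was the lower in 1 of the 44, IFI6 (2.27%), against 11.3%. MX2 differed most, by 1.09 (SE 0.12, adjusted p = 3.72e-05), with 0.81 for ERβ2 siRNA and -0.28 for ERβ2 plasmid. With each array centred on its median, the siRNA effect was the higher in 6 and the lower in 5, while the median of all genes was -0.14 and that of the effectors 0.04.

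**Figure D5:**
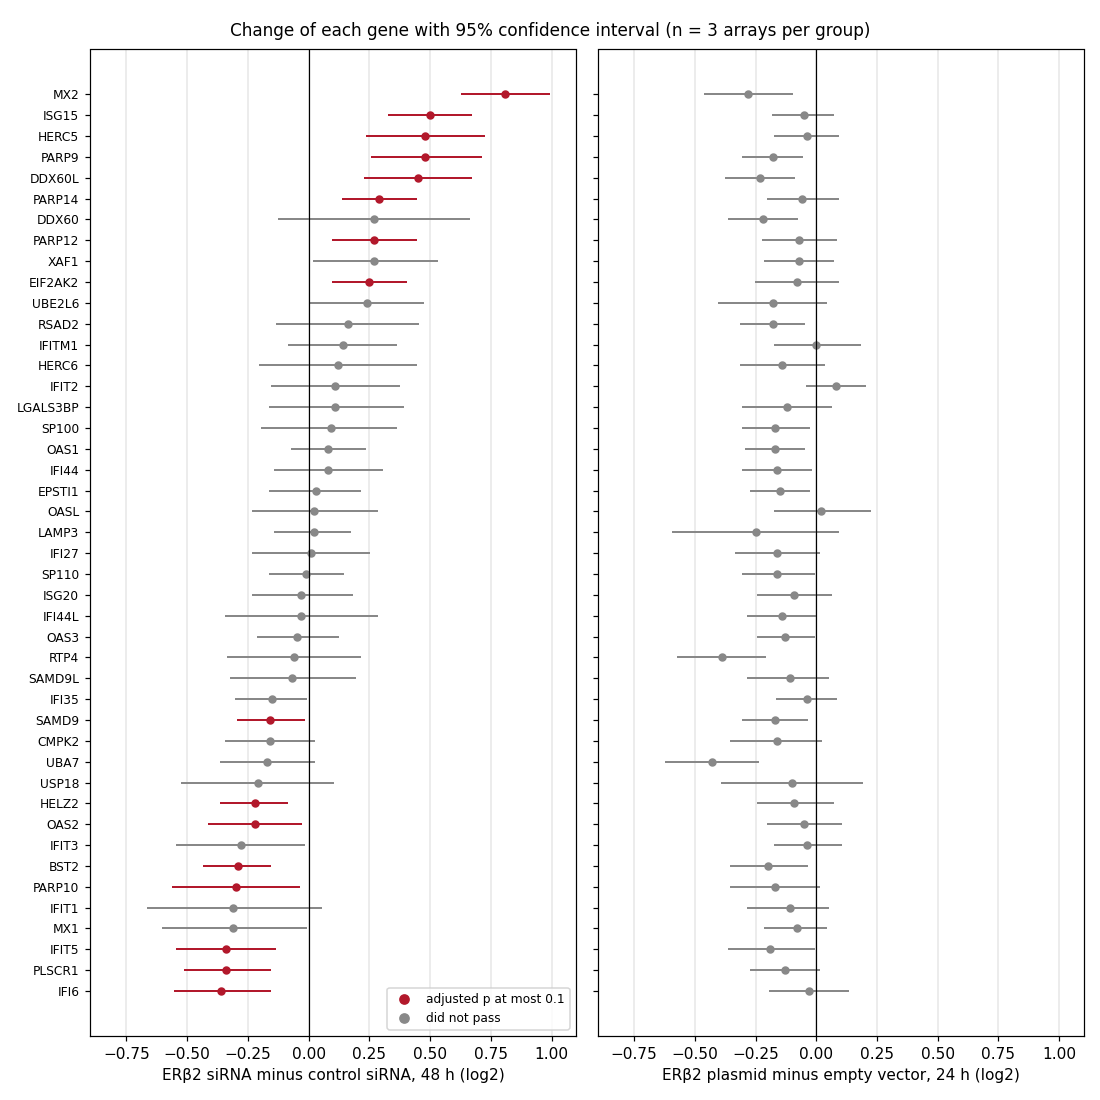
Differences (log2, with 95% confidence intervals) of the 44 effectors for ERβ2 siRNA minus control siRNA and for ERβ2 plasmid minus EV, with red points at an adjusted p of at most 0.1. For the siRNA, MX2 stands highest at 0.81 and IFI6 lowest at -0.36, and for the plasmid all 44 miss the threshold, from UBA7 at -0.43 to IFIT2 at 0.08.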

How the data were processed

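Total RNA of 12 BT549 cultures was measured on Affymetrix Human Gene 1.1 ST arrays. The authors processed the scans with RMA in the Affymetrix Expression Console (version not given in the sources used here), which corrects background, normalizes between arrays and summarises probes, and the deposited values were read as log2 values, since the base is not stated. RMA gives all arrays nearly the same distribution, so differences are relative to the other genes of an array. Symbols came from the array annotation: of 33297 transcript clusters 19181 had 1 symbol, and 2055 with several and 12061 without annotation were left out.

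Comparisons of 3 arrays against 3 were made by limma's lmFit and eBayes (version 3.58.1, R 4.3.3), with no replicate block and no filter on low values. The threshold was 0.1 for p-values adjusted over 17958 genes by the Benjamini-Hochberg method. A fold of at least 1.5 with an unadjusted p under 0.05 was counted as well. Signed differences are ERβ2 siRNA minus control siRNA, ERβ2 plasmid minus EV, and EV minus control siRNA. The fit was tested on simulated data. Alternatives were other scalings, rows, filters, thresholds and tests, the replicate block, and leaving out each array.

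Values by array are given for the 6 effectors with the largest differences with ERβ2 siRNA, the 6 with EV against control siRNA, the 4 with ERβ2 plasmid, and the first gene listed of each role. The genes and lists were chosen with earlier results of these data known. Precision is limited by the number of arrays. Promoters and gene neighbours were taken from RefSeq (GRCh38.p14), and motifs were searched on both strands.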

Additional observations from a re-analysis of the deposited data

Results flagged for a closer look

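The effect of ERβ2 siRNA and that of ERβ2 plasmid differed in 11 of the 44 effectors by limma's test of the difference itself, over all 12 arrays, a share of 25% where 26.4% of all genes passed. The siRNA effect minus the plasmid effect was 1.09 on the log2 scale for MX2 (adjusted p = 3.72e-05), 0.68 for DDX60L (0.00161), 0.66 for PARP9 (0.00151), 0.55 for ISG15 (0.00107) and 0.52 for HERC5 (0.0128). It was 0.42 for UBE2L6 (0.0668), 0.35 for PARP14 (0.0155), 0.34 for PARP12 (0.0325), 0.32 for EIF2AK2 (0.0368) and 0.25 for OAS1 (0.0388). IFI6 had -0.33 (0.0648). With each array centred on its median the siRNA effect was the higher in 6 effectors and the lower in 5, so the split by direction depends on the scaling. The siRNA effect was read from arrays in which these genes were low and the plasmid effect from arrays in which they were high, at 48 h and 24 h, and these cannot be told apart from ERβ2 itself. UBE2L6 did not pass without control siRNA replicate 2 (adjusted p = 0.147) or 3 (0.110), ERβ2 siRNA replicate 1 (0.143) or 3 (0.105), EV replicate 1 (0.111) or 2 (0.102) or ERβ2 plasmid replicate 2 (0.134). IFI6 did not pass without control siRNA replicate 2 (adjusted p = 0.145) or 3 (0.107), ERβ2 siRNA replicate 2 (0.135) or 3 (0.1), EV replicate 2 (0.131) or ERβ2 plasmid replicate 1 or 3 (0.118 each). The value printed as 0.1 was above the threshold before rounding.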

How the results depend on the processing

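All 44 effectors were higher with EV than with control siRNA and none passed with ERβ2 plasmid under every alternative and with any array left out, except that leaving out genes whose mean was below 5 left 43 in the fit, of which 43 were higher with EV. With ERβ2 siRNA the number that fell was 5 with all transcript clusters in the fit, 15 with arrays centred on their median, 4 with Student's t-test, 5 at an adjusted p under 0.05 and 0 at a fold of at least 1.5, where 1 rose. The difference of effects was then passed by 3. Leaving out an array gave 8 to 11 that rose and 6 to 8 that fell with ERβ2 siRNA. Shares of all genes called are given for the main fits only. EIF2AK2 lost its call under median centring (adjusted p = 0.143), and IFIT5 (0.107) and PARP12 (0.1, above the threshold before rounding) with the t-test. The 16 effectors below an unadjusted p of 0.05 with ERβ2 plasmid became 9 under median centring. Of all 44 effectors, 40 to 42 had estimates below 0 with ERβ2 plasmid over scalings and left-out arrays, an alternative chosen after seeing the data. Deviations from the group mean over all genes were correlated between the 2 groups of a comparison. For ERβ2 siRNA and control siRNA, arrays of the same replicate number had 0.22, 0.14 and 0.01, and arrays of different numbers had -0.19 to 0.06. For ERβ2 plasmid and EV the same numbers gave -0.14, -0.09 and 0.10, and different numbers gave -0.13 to 0.19. Whether replicate numbers pair the arrays was not tested. With the replicate block 9 rose and 9 fell with ERβ2 siRNA, 44 were higher with EV, 0 passed with ERβ2 plasmid, 11 differed between the effects, and OAS2 lost its call (0.122). The adjusted p of PARP10 with ERβ2 siRNA went from 0.0838 to 0.00899 with the block.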

Other observations

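Several effectors lie side by side on the genome, so their differences between EV and control siRNA can be read by locus, with gene order taken from RefSeq. Among 13 pairs of effectors with at most 2 coding genes between them, the 95% confidence intervals of the differences did not overlap in 11. MX1 (6.48) and MX2 (1.95) stood furthest apart, by 4.53 on the log2 scale, with no coding gene between them on chromosome 21. In the IFIT cluster on chromosome 10, IFIT1 (6.38) and its neighbour IFIT5 (4.0) were 2.38 apart. RSAD2 (5.68) and CMPK2 (3.94) on chromosome 2 were 1.74 apart, and HERC6 (5.72) and HERC5 (4.12) on chromosome 4 were 1.60 apart. The intervals overlapped for PARP9 (3.58) and PARP14 (3.52) on chromosome 3 and for SP100 (3.09) and SP110 (2.67) on chromosome 2. The pairs were listed after the values were seen, and the distances between their differences were not tested.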
